A study of Drosophila melanogaster with 6 samples.

Results

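The transcript of bicoid (bcd) and those of 6 factors that carry or hold it at the anterior of the Drosophila melanogaster egg were followed in RNA-seq libraries of unfertilized eggs. The 7 genes are bcd, exuperantia (exu), swallow (swa), staufen (stau) and the subunits larsen (lsn), Vps25 and Vps36 of the membrane-sorting complex ESCRT-II. They were taken by gene identifier and symbol, and all 7 were found among the 13943 genes of the tables. Eggs came from mothers with the transgene MEK F53S (3 libraries), a gain-of-function form of the kinase that activates ERK, or from mothers with a wild-type MEK transgene (3 libraries). The mutation is of the kind seen in RASopathies, a class of congenital disorders caused by overactive RAS signalling. Both constructs sat at the same genomic position and were overexpressed maternally through MTD-GAL4, a set of GAL4 drivers active in the female germline, and all mothers were mated to sterile males. Eggs of both groups were 0 to 30 min old and each collection held about 20 of them. Both groups overexpress MEK, so the comparison is of a mutant with a wild-type kinase and not with an unmanipulated egg, and each construct is represented by 1 fly line. An effect of the mutation cannot be told apart from an effect of the line.

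bcd RNA is made in the nurse cells of the ovary, carried into the oocyte along microtubules and fixed at its anterior pole. After egg activation it is translated there, and the Bicoid protein spreads into a gradient that turns on head and thorax genes such as hunchback and blocks translation of caudal RNA. Exuperantia acts in the first steps of transport, Swallow and ESCRT-II are needed to keep the RNA at the anterior in later oogenesis, and Staufen, which binds double-stranded RNA, holds it there in late oocytes and eggs.

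Total estimated counts were between 37224814 and 48485328 in MEK F53S libraries and between 37342088 and 48756295 in wild-type MEK libraries. Dsor1, the fly MEK gene, stood at 1336 ± 229 CPM (normalised counts scaled to a common library size) with MEK F53S and at 1370 ± 182 CPM with wild-type MEK (SD, n = 3 each), and its counts do not separate the gene from either transgene. The 9 egg markers summed to between 16045 and 17154 CPM in MEK F53S libraries and to between 20582 and 20955 CPM in wild-type MEK libraries. Of these 9 genes, 2 were called lower, and these 2 make up most of each sum. They were smg (4830 ± 221 CPM with MEK F53S and 6985 ± 569 CPM with wild-type MEK) and CycB (7904 ± 318 and 10530 ± 328 CPM, SD, n = 3 each). Another 3 were called higher (png, fs(1)Ya and nanos) and 4 were not called, beside 25.2% of all tested genes called. Markers of other sources differed in level. The 15 eggshell genes had at most 14 counts in a MEK F53S library and at most 6 in a wild-type MEK library, and 11 of them, Cp36 and Vm26Aa included, were at 0 in every library. The 8 yolk and fat body genes had at most 12 and 25 counts, with 5 at 0. Of 9 sperm and testis genes, 7 were at 0, among them ProtA and ProtB, and the list reached 61.1 to 74.5 CPM with MEK F53S and 59.2 to 69.0 CPM with wild-type MEK, nearly all of it from bam, which is also a gene of the female germline. The 18 early zygotic genes reached 9.07 to 21.2 CPM with MEK F53S and 14.3 to 16.3 CPM with wild-type MEK. Of these genes, 5 were at 0 in all libraries and 3 were tested. Most of the sum came from Sry-alpha, at means of 9.78 CPM with MEK F53S and 14.25 CPM with wild-type MEK. Kr alone was called higher, on 0.84, 0.45 and 2.02 CPM with MEK F53S and 0, 0.147 and 0 CPM with wild-type MEK. One library of each group stood apart from the other two: the chi-square per degree of freedom between replicates was 137 and 121 for pairs with MEK F53S replicate 2 against 29.8 for the remaining pair, and 166 and 158 for pairs with wild-type MEK replicate 1 against 47.2.

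The transcript of bcd was far lower with MEK F53S, while called changes among the factors that localise it were smaller and in both directions. Levels of stau, exu and Vps25 were 77.5%, 152% and 160% of those with wild-type MEK. All 7 genes passed the filter on low counts. By the quasi-likelihood test of edgeR with Benjamini-Hochberg adjustment over all 7539 tested genes, 2 of the 7 were called lower (bcd and stau) and 2 higher (exu and Vps25), and 3 were not called. Of all tested genes, 12.9% were called lower, 12.3% higher and 25.2% either way, so calls were common in this comparison. The median log2 fold change was 0.41 over the 7 genes and 0.05 over all tested genes. The former is the value of Vps36, which was not called and had a standard error of 0.44. Normalised levels of the groups did not overlap for 4 of the 7 genes (bcd, stau, lsn and Vps25), as was the case for 42.3% of all tested genes.

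**Figure D1:**
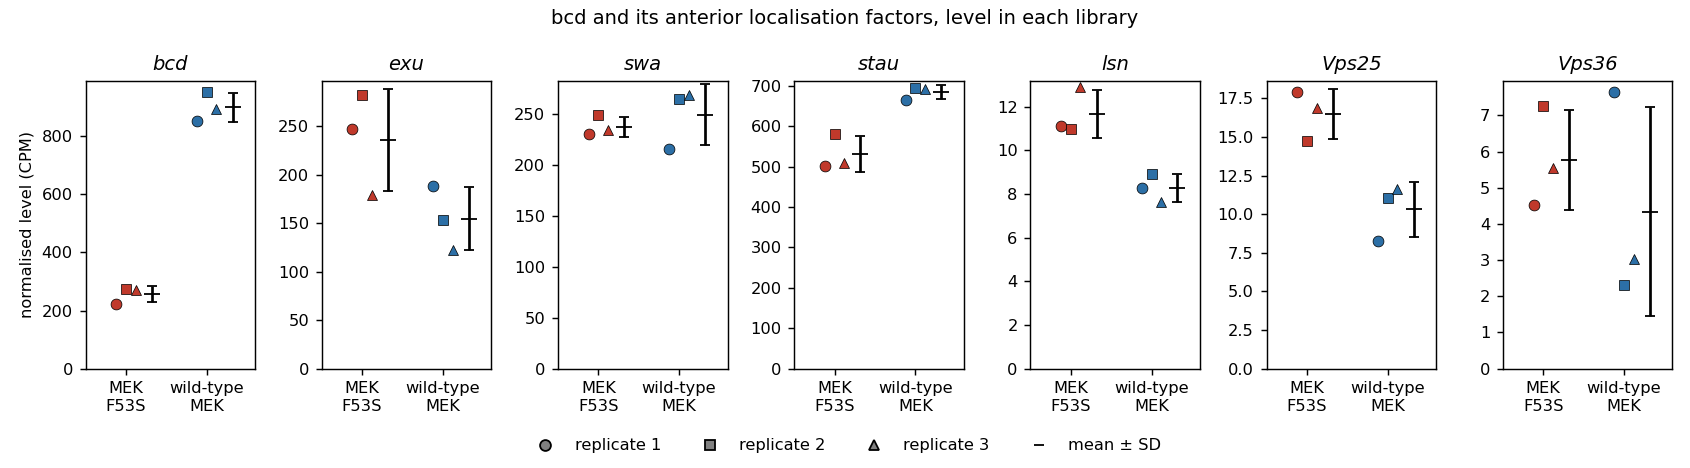
Normalised level (CPM, axis from 0) of each of the 7 transcripts in the 3 MEK F53S libraries (red, left) and the 3 wild-type MEK libraries (blue, right), with symbols for replicates and bars for mean ± SD. The bcd levels lie between 224 and 274 CPM with MEK F53S and between 852 and 954 CPM with wild-type MEK, whereas the points of exu, swa and Vps36 overlap between the groups.

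The localised RNA itself, bcd (chromosome arm 3R, 6755842 to 6759466 in dm6, minus strand), had 224, 274 and 269.9 CPM in MEK F53S replicates 1 to 3, against 852, 954 and 892 CPM in wild-type MEK replicates 1 to 3. Every MEK F53S library was below every wild-type MEK library, and the gap between the groups was several times the range within either. These levels rest on 9103, 13312 and 14274 estimated counts with MEK F53S and on 38919, 32474 and 31954 with wild-type MEK. The log2 fold change was -1.81 ± 0.12 (SE, 95% confidence interval -2.07 to -1.55, adjusted p = 1.65e-05 in edgeR), which leaves 28.5% of the wild-type MEK level. In the 6 fits that leave out 1 library it ranged from -1.88 to -1.72, and it passed the test in each.

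Per transcript length the picture for bcd was the same. In TPM, a count corrected for transcript length and scaled to a fixed total, bcd had 157, 199.8 and 193 in the MEK F53S libraries and 568, 592 and 565 in the wild-type MEK libraries. It ranked between 957 and 1216 by TPM among the genes of a MEK F53S library, and between 218 and 247 in a wild-type MEK library. Above a mean level of 100 CPM lay 2391 genes. Of these, 46 had a log2 fold change of -1 or lower, all of them called, and bcd held rank 6 by the size of its fall and rank 2 by p. Over all 7539 tested genes, scarce ones included, it held rank 100 by the size of its fall and rank 12 by p. Fewer eggs with the RNA and less RNA in each egg cannot be told apart in such pooled collections. The mitochondrial share of counts moved with the groups, between 4.14% and 5.24% in MEK F53S libraries and between 7.84% and 10.08% in wild-type MEK libraries. With the mitochondrially encoded genes left out before scaling, the log2 fold change of bcd stayed at -1.81.

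exu, which codes for the factor of early bcd transport (2R, 20667427 to 20671083, minus strand), was higher with MEK F53S. It had 247, 282 and 178.5 CPM in the MEK F53S libraries and 188, 153 and 123 CPM in the wild-type MEK libraries, so MEK F53S replicate 3 fell below wild-type MEK replicate 1 and the groups overlapped. The log2 fold change was 0.61 ± 0.20 (SE, adjusted p = 0.047 in edgeR), close to the threshold. Without MEK F53S replicate 1 or 2 the call was lost (log2 fold change 0.57 and 0.46, adjusted p = 0.128 and 0.144 in edgeR). It was also lost without wild-type MEK replicate 2 or 3 (0.58 and 0.45, adjusted p = 0.131 and 0.162). An exon of galla-1 on the other strand covers 12.07% of the exu exon bases, and galla-1 averaged 10.45 ± 1.29 CPM with MEK F53S and 6.90 ± 1.23 CPM with wild-type MEK (SD, n = 3 each). The libraries are labelled as strand-specific, the strand setting of the counting is not given in the sources, and whether galla-1 reads entered the exu count was not tested.

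The anchoring factors differed from each other. swa (X, 6363418 to 6365708, minus strand), whose protein keeps bcd RNA at the anterior, had 230.1, 249 and 234 CPM with MEK F53S and 215, 265 and 268 CPM with wild-type MEK. The MEK F53S values lay within the wild-type MEK range. Its log2 fold change was -0.07 ± 0.12 (SE, adjusted p = 0.70 in edgeR), with a 95% confidence interval from -0.34 to 0.20, so a change of the size of that of bcd lies outside the interval.

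stau (2R, 18117896 to 18125779, minus strand), which anchors oskar RNA at the posterior as well as bcd RNA at the anterior, had 501, 582 and 509 CPM with MEK F53S and 666, 696 and 692 CPM with wild-type MEK. All MEK F53S libraries were below all wild-type MEK libraries, by less than for bcd. The log2 fold change was -0.37 ± 0.10 (SE, adjusted p = 0.0256 in edgeR), which leaves 77.5% of the wild-type MEK level. The call was lost without MEK F53S replicate 1 or 3 (log2 fold change -0.33 and -0.34, adjusted p = 0.104 and 0.119 in edgeR) and without wild-type MEK replicate 2 or 3 (both -0.38, adjusted p = 0.0759 and 0.0719). In TPM, at 124, 169.9 and 144 with MEK F53S and 157, 170.1 and 177 with wild-type MEK, the groups overlapped, and limma on log2(TPM + 1) did not call stau (log2 fold change -0.21, adjusted p = 0.272).

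The 3 subunits of ESCRT-II, a complex known for sorting membrane proteins into multivesicular bodies and, in the fly ovary, for a separate part in anchoring bcd RNA, were all at higher mean levels with MEK F53S, and 1 of them was called. Vps25 (2R, 8625451 to 8626180, plus strand) had 17.9, 14.7 and 16.9 CPM with MEK F53S and 8.29, 11.04 and 11.6 CPM with wild-type MEK, without overlap. Its log2 fold change was 0.68 ± 0.20 (SE, adjusted p = 0.033 in edgeR). Leaving out MEK F53S replicate 1 or 3 ended the call (0.62 and 0.66, adjusted p = 0.12 and 0.103 in edgeR). So did leaving out any wild-type MEK library (0.51, 0.70 and 0.75 for replicates 1 to 3, adjusted p = 0.0604, 0.0906 and 0.0578).

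lsn (3R, 21865168 to 21866238, plus strand), the Vps22 subunit, had 11.1, 10.99 and 12.9 CPM with MEK F53S and 8.29, 8.90 and 7.62 CPM with wild-type MEK. The groups did not overlap, but the test was not passed (log2 fold change 0.50 ± 0.19 SE, adjusted p = 0.0891 in edgeR). A gene on the other strand, CG6569, covers 7.12% of its exon bases and averaged 0.345 CPM with MEK F53S and 1.39 CPM with wild-type MEK.

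Vps36 (3L, 13511646 to 13513112, minus strand), the subunit shown to bind bcd RNA, had 4.53, 7.26 and 5.54 CPM with MEK F53S and 7.64, 2.32 and 3.04 CPM with wild-type MEK. Wild-type MEK replicate 1 was the highest of all 6 libraries and the other two of its group were the lowest. The log2 fold change was 0.41 ± 0.44 (SE, adjusted p = 0.53 in edgeR). Without wild-type MEK replicate 1, in a fit with more calls over all genes, it was 1.07 and passed the test (adjusted p = 0.0375 in edgeR). The estimated counts behind these values were between 184 and 352 with MEK F53S and between 79 and 349 with wild-type MEK.

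**Figure D2:**
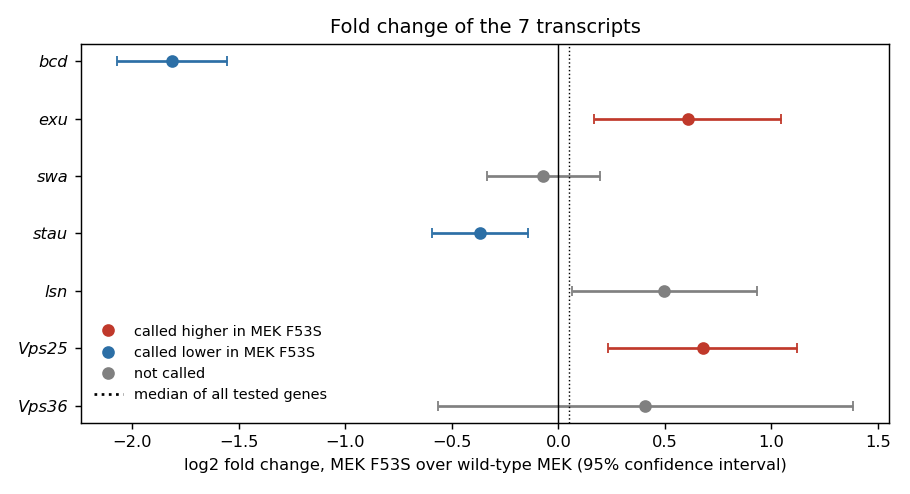
Log2 fold change of MEK F53S over wild-type MEK for each of the 7 transcripts (points) with the 95% confidence interval from edgeR (bars), coloured by call, beside the median of all tested genes (dotted line, 0.05). The interval of bcd, -2.07 to -1.55, does not meet that of any other of the 7, and the interval of Vps36 is the widest, -0.56 to 1.38.

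Set against its localisation factors within each library, bcd RNA was less abundant with MEK F53S in all 6 ratios. The ratio of bcd to exu in TPM was 0.707, 0.76 and 1.23 in the MEK F53S libraries and 3.48, 4.71 and 5.52 in the wild-type MEK libraries. To swa, the anchoring factor with the steadiest level, it was 0.613, 0.692 and 0.755 with MEK F53S and 2.43, 2.26 and 2.11 with wild-type MEK. There was thus less bcd than swa RNA per length in each MEK F53S library and more in each wild-type MEK library. The ratio to stau was between 1.18 and 1.34 with MEK F53S and between 3.19 and 3.62 with wild-type MEK.

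The difference of mean log2 ratio, MEK F53S minus wild-type MEK, was -2.37 for exu, -1.72 for swa, -1.44 for stau, -2.15 for lsn, -2.34 for Vps25 and -2.17 for Vps36. No ratio overlapped between the groups. All 6 have bcd as numerator, so each holds the fall of bcd given above and they are not 6 separate results. Each gave p = 0.1 in an exact permutation test, two-sided, which is the smallest value that 3 against 3 libraries allow, and 0.1 after adjustment over the 6 ratios. The widest spread was in the ratio to Vps36, between 9.42 and 13.98 with MEK F53S and between 27.3 and 87.3 with wild-type MEK. For comparison at the other pole, the ratio of bcd to osk, the posterior determinant RNA, was 0.17, 0.153 and 0.216 with MEK F53S and 0.622, 0.723 and 0.861 with wild-type MEK.

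**Figure D3:**
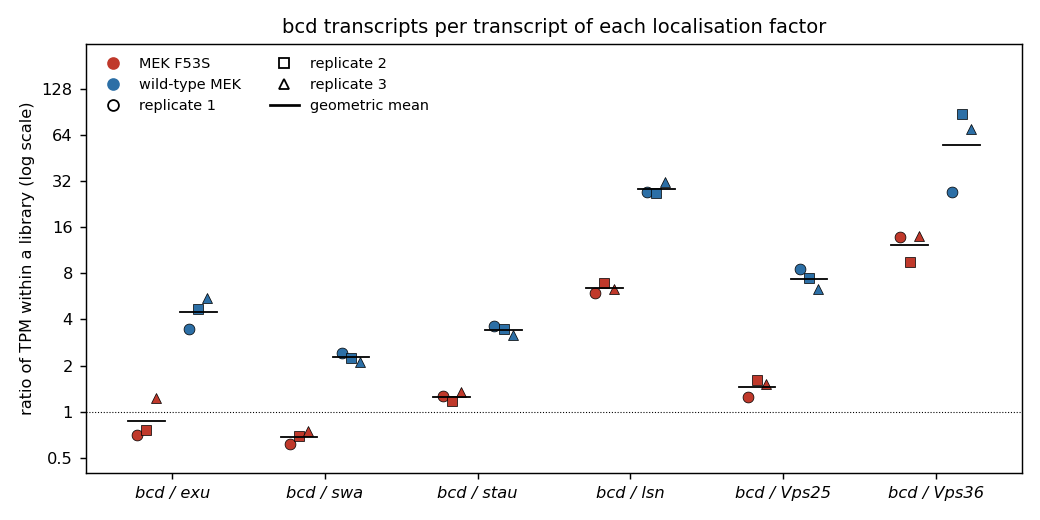
Ratio of bcd TPM to the TPM of each localisation factor within a library (log scale), for the 3 MEK F53S libraries (red, left of each pair) and the 3 wild-type MEK libraries (blue, right), with the geometric mean as a line. The groups do not overlap in any of the 6 ratios, which all share the bcd value, and bcd to swa crosses 1 between the groups.

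The order of the 7 transcripts by TPM differed between the groups. With MEK F53S swa was at the top (256, 289 and 256 TPM), followed by exu (222, 263 and 157), bcd, stau and Vps25 (125, 123 and 126). The ranges of swa and exu, of exu and bcd, of bcd and stau, and of stau and Vps25 overlapped over the libraries. Within a library, swa was above exu and bcd above stau in 3 of 3, whereas exu was above bcd and stau above Vps25 in 2 of 3. With wild-type MEK bcd was at the top, clear of swa (234, 262 and 268 TPM), and then came stau, exu (163, 126 and 102) and Vps25 (66.9, 78.8 and 89.7). There the ranges of stau and exu overlapped, with stau above exu in 2 of 3 libraries, and the others of these neighbours did not overlap. lsn was far below in both groups, at 26.3, 28.9 and 30.4 TPM with MEK F53S and 20.9, 22.03 and 17.9 TPM with wild-type MEK. Vps36 was lower still, at 11.4, 21.2 and 13.8 TPM with MEK F53S and 20.8, 6.78 and 8.15 TPM with wild-type MEK, where it overlapped lsn. The 3 ESCRT-II transcripts summed to 162, 174 and 170.3 TPM with MEK F53S and to 109, 108 and 116 TPM with wild-type MEK. In TPM, Vps25 made up 71.1% to 76.8% of the sum with MEK F53S and 61.6% to 77.5% with wild-type MEK. In CPM, Vps25 and lsn averaged 16.5 and 11.7 with MEK F53S and 10.3 and 8.27 with wild-type MEK.

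The length columns bear on these TPM values. The deposited length of bcd was 1235, 2413 and 1198 bases with MEK F53S and 1033, 866 and 902 bases with wild-type MEK, although the 5 annotated bcd transcripts are 1479 to 2536 bases long. Those of exu and stau were also below their shortest annotated transcripts (1988 and 3509 bases) in all libraries. Across 3905 genes with several annotated transcripts and over 100 counts in every library, 91.3% of deposited lengths were below the shortest transcript, against 0.23% across 2246 genes with 1 transcript. The column was therefore not read as a change of isoform. A second effective length (the implied effective length), which is the length corrected for where fragments can start, was computed from counts and TPM and scaled to genes with 1 transcript. For bcd it was 2557, 2678 and 2567 bases with MEK F53S and 2431, 2311 and 2453 bases with wild-type MEK. The deposited effective length of bcd was 0.492, 0.96 and 0.478 of that with MEK F53S and 0.426, 0.381 and 0.376 of it with wild-type MEK, so MEK F53S replicate 2 stood apart. The implied length has a fault of its own. With MEK F53S it was above the longest annotated transcript of bcd in all libraries, and that of stau, between 5866 and 7227 bases over both groups, was above its longest annotated transcript of 5240 bases. Vps25, with 1 transcript of 678 bases, had an effective length of 257, 232 and 245 bases with MEK F53S. In every wild-type MEK library it was 201 bases. Neither cause was tested. The TPM of bcd, stau and Vps25, and the ratios and sums built on it, carry this uncertainty. CPM does not use length, so it is also not corrected for a group difference in effective length.

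The mean implied effective length was longer with MEK F53S for all 7 genes, with ratios of means between 1.08 for bcd and stau and 1.27 for Vps36. The same held across the 2246 genes with 1 transcript, whose median effective length was 0.807, 0.803 and 0.817 of the annotated length in MEK F53S libraries and 0.715, 0.643 and 0.710 of it in wild-type MEK libraries. With this implied effective length as an offset in edgeR, an alternative chosen after seeing the data, the log2 fold change of bcd was -1.77 (adjusted p = 1.22e-05). Those of stau and Vps25 were -0.33 and 0.55 and no longer passed (adjusted p = 0.0778 and 0.0712), and that of exu was 0.60 (adjusted p = 0.0485). swa, lsn and Vps36 stood at -0.06, 0.37 and 0.26, against -0.07, 0.50 and 0.41 without the offset. They stayed without a call (adjusted p = 0.763, 0.208 and 0.698).

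The partners of these factors were examined in lists. Among 15 genes for transport and anchoring of RNA in the germline, 1 was called higher, 0 lower and 14 not. Of all tested genes, 25.2% were called. The list had a median log2 fold change of 0.00 against 0.05 over all tested genes. The dynein adaptor genes egl and BicD, the dynein genes Dhc64C and ctp, and the kinesin gene Khc were not called, with log2 fold changes of 0.27, -0.27, -0.04, 0.00 and -0.30. Nor were yps (-0.32), which codes for an RNA-binding partner of Exuperantia, par-1 (-0.21), a kinase gene of oocyte polarity, and gammaTub37C and Grip75 (0.49 and -0.30), which code for microtubule nucleation factors. sktl, a phosphatidylinositol phosphate kinase gene, had 224, 358 and 239 CPM with MEK F53S and 194, 90.6 and 71.3 CPM with wild-type MEK (log2 fold change 1.205 ± 0.34 SE, adjusted p = 0.0275 in edgeR). Its call was lost without MEK F53S replicate 2 or 3 or wild-type MEK replicate 2 or 3 (0.92 to 1.29, adjusted p between 0.0545 and 0.105). When wild-type MEK replicate 1 was left out, 1304 genes were called higher and 1310 lower of 7724 tested, against 930 and 970 of 7539 with all libraries. In that fit this list held 3 genes called higher (sktl, egl and gammaTub37C) and 4 called lower (yps, BicD, Khc and Grip75). The log2 fold change of gammaTub37C was then 0.80 (adjusted p = 0.0136 in edgeR), and with the deposited effective length as an offset it was 1.24 (adjusted p = 0.00757), against 0.62 (not called) with the implied effective length.

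The other ESCRT genes gave 0 calls among 17 tested with edgeR, beside 25.2% of all tested genes called. Of the 17, 6 had an unadjusted p under 0.05 in edgeR, but the share of all tested genes under that value was not counted. DESeq2 gave 1 call among the 17, beside 1161 genes called higher and 1198 lower of 7539 tested. The median log2 fold change of the 17 was 0.17, with a range from -0.37 to 0.64. The smallest p-values were those of Vps60, Chmp1, Vps2 and Vps24, which act in the late membrane-scission steps. Vps60 had 30.9, 32.3 and 28.9 CPM with MEK F53S and 25.9, 20.9 and 17.8 CPM with wild-type MEK (log2 fold change 0.51, adjusted p = 0.0598 in edgeR). Chmp1 had 11.98, 12.7 and 13.03 CPM with MEK F53S and 8.58, 9.90 and 7.85 CPM with wild-type MEK (0.52, adjusted p = 0.0735). Vps60 passed with upper-quartile factors, with DESeq2 and without wild-type MEK replicate 1 (0.63, adjusted p = 0.013), and Vps2 without MEK F53S replicate 2 (0.79, adjusted p = 0.0493). Without wild-type MEK replicate 1 shrb, the central scission subunit gene, was called lower (-0.52, adjusted p = 0.0151).

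Of 14 genes for stability and translation of bcd RNA and for partners of the Bicoid protein, 2 were called higher, 1 lower and 11 not. The list median was 0.07, and 25.2% of all tested genes were called. wisp, the cytoplasmic poly(A) polymerase gene needed for the lengthening of the bcd tail at egg activation, was at 1027 ± 59.5 CPM with MEK F53S and 1068 ± 50.3 CPM with wild-type MEK (log2 fold change -0.06, adjusted p = 0.70 in edgeR). bsf, cort, grau and sra, which act on bcd RNA stability or egg activation, had log2 fold changes of -0.18, 0.17, 0.31 and -0.17 and were not called. bin3 and eIF4EHP, of the machinery through which Bicoid represses caudal RNA, were at 0.24 and 0.01, and cad itself was at 0.13. With limma on log2(TPM + 1), cad was called higher (0.35, adjusted p = 0.0354). pum, a translational repressor gene, had 683, 749.6 and 675 CPM with MEK F53S and 746, 969 and 954 CPM with wild-type MEK and was not called (-0.34, adjusted p = 0.0654 in edgeR). Without wild-type MEK replicate 1 it was called lower (-0.49, adjusted p = 0.00371). orb, a regulator of cytoplasmic polyadenylation, had 637, 943 and 630.2 CPM with MEK F53S and 396, 236 and 223 CPM with wild-type MEK (1.37, adjusted p = 0.00336), and was called higher in all 18 alternative fits. Fmr1, a translational repressor gene, had 301, 315 and 283 CPM with MEK F53S and 252, 141 and 147 CPM with wild-type MEK (0.73, adjusted p = 0.0275). hb had 75.9, 85.9 and 57.7 CPM with MEK F53S and 97.0, 118 and 116 CPM with wild-type MEK (-0.59, adjusted p = 0.0283). Whether the hb RNA of these unfertilized eggs depended on Bicoid was not tested. The call of Fmr1 was lost without any library but wild-type MEK replicate 1 (0.56 to 0.77, adjusted p between 0.0655 and 0.105). That of hb was lost without MEK F53S replicate 1 or 3 or wild-type MEK replicate 2 or 3 (-0.62 to -0.44, adjusted p between 0.0752 and 0.113).

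Other localised maternal RNAs did not share the fall of bcd in size. Among all tested genes 25.2% were called. Of 10 tested localised RNAs, 3 were called higher (orb, grk and nanos), 3 lower (gcl, CycB and fs(1)K10) and 4 not, with median 0.09. The deepest fall among them was that of gcl, a germ plasm RNA, with 399, 505 and 437 CPM with MEK F53S and 614, 686 and 675 CPM with wild-type MEK (log2 fold change -0.56, adjusted p = 0.00747 in edgeR). CycB fell by 0.41. grk, which sets the dorsal side of the egg, had 130.3, 97.0 and 122 CPM with MEK F53S and 67.3, 76.3 and 70.6 CPM with wild-type MEK (0.71, adjusted p = 0.00715). osk, at 2483 ± 511 CPM with MEK F53S and 2161 ± 300.2 CPM with wild-type MEK, was not called (0.20, adjusted p = 0.37). The nanos call was lost without MEK F53S replicate 1 or 2 or wild-type MEK replicate 2 or 3 (0.50 to 0.61, adjusted p between 0.121 and 0.132), and that of fs(1)K10 without any library but wild-type MEK replicate 1 (-0.43 to -0.32, adjusted p between 0.0646 and 0.147).

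**Figure D4:**
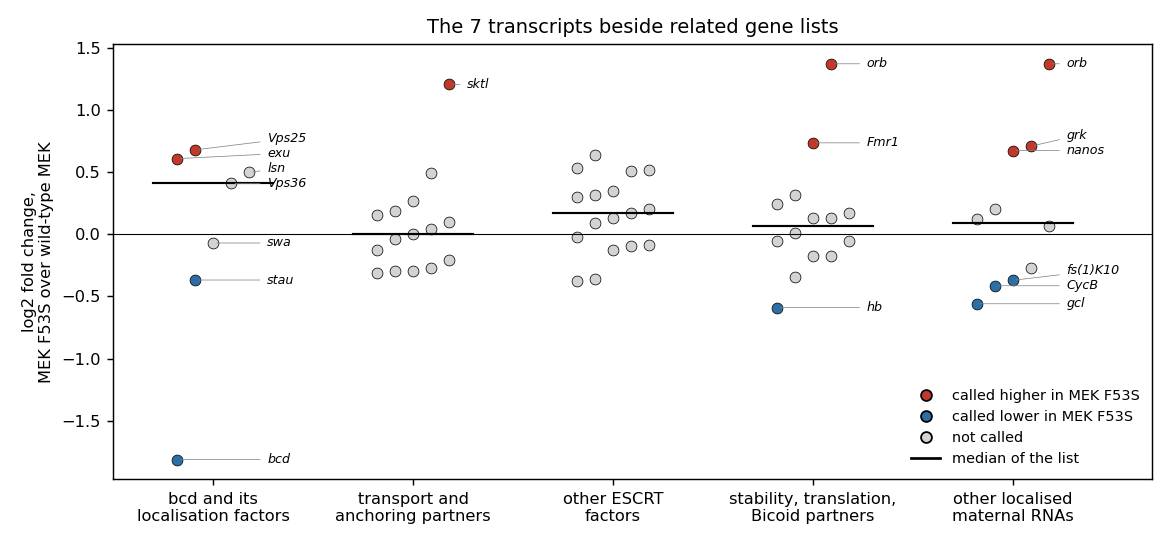
Log2 fold change of MEK F53S over wild-type MEK for each tested gene of 5 gene lists, coloured by call, with the median of each list as a line. bcd, at -1.81, lies below every gene of the other 4 lists, whose lowest value is -0.59 for hb.

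Over 3577 genes averaging 50 CPM or more, those most like bcd over the 6 libraries were Ten-m, fz, HIP, plx and Nipped-B. Likeness was the root mean square difference in log2 CPM after centring each gene, which was 0.121, 0.165, 0.171, 0.259 and 0.262 for these genes, against a median of 0.88 over all. Ten-m, a teneurin gene, had 46.04, 47.8 and 44.1 CPM with MEK F53S and 164, 156 and 165 CPM with wild-type MEK, and its log2 fold change of -1.81 is that of bcd. fz, a Wnt receptor gene, had a log2 fold change of -1.54, and Nipped-B, a cohesin loader gene, of -1.34. These genes were chosen for the likeness, so their folds are a description.

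Few reads came from the genes beside bcd. zen, the nearest gene at lower coordinates (1648 bases away), was scarce, with a mean of 1.69 CPM with MEK F53S and 1.001 CPM with wild-type MEK (log2 fold change 0.75, adjusted p = 0.35 in edgeR), and Ama, the nearest at higher coordinates, had 0 counts in all libraries. Within 50 kb on either side of bcd, zen alone of 6 genes was tested, so whether the neighbourhood moved with bcd cannot be read from these data. Next to Vps25, Cirl (248 bases away) had a log2 fold change of -0.80 (adjusted p = 0.00182) and beta3GalTII (1 base away) one of -0.40 (adjusted p = 0.26). Next to Vps36, Spt20 (105 bases away) had one of -0.53 (adjusted p = 0.0186) and Liprin-beta 0.00. The Spt20 call was lost without MEK F53S replicate 1 or 3 or wild-type MEK replicate 2 or 3 (-0.52 to -0.47, adjusted p between 0.0628 and 0.0912). Fem-1 beside exu, kdn and Marf beside swa, Spn55B beside stau and glec beside lsn were not called, at -0.30, 0.24, 0.36, 0.96 and 0.26. Marf was called higher without wild-type MEK replicate 1 (0.495, adjusted p = 0.0186). Gr57a and CG34196, on the other sides of exu and stau, had 0 counts, and Cby, beside lsn, had 13 counts in all with MEK F53S and 1 with wild-type MEK. Within 50 kb of exu, swa, stau, lsn, Vps25 and Vps36, 2 of 15, 2 of 7, 1 of 20, 3 of 10, 1 of 7 and 3 of 8 tested genes were called, beside 25.2% of all tested genes.

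Across other processing the fall of bcd kept its call and the smaller changes did not. In 10 alternative fits on all libraries without a replicate block the log2 fold change of bcd lay between -2.35 and -1.65. The deepest value of these came from an offset of the deposited effective length, the column in which MEK F53S replicate 2 stood apart. The call of exu was lost in 4 of these 10, that of stau in 4 and that of Vps25 in 2, with the direction kept in each. With a replicate block, without and with the deposited effective length offset, bcd stood at -1.82 and -2.40 and was called. There exu kept its call, while stau (adjusted p = 0.0514 and 0.162 in edgeR) and Vps25 (0.0608 and 0.130) lost theirs.

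**Figure D5:**
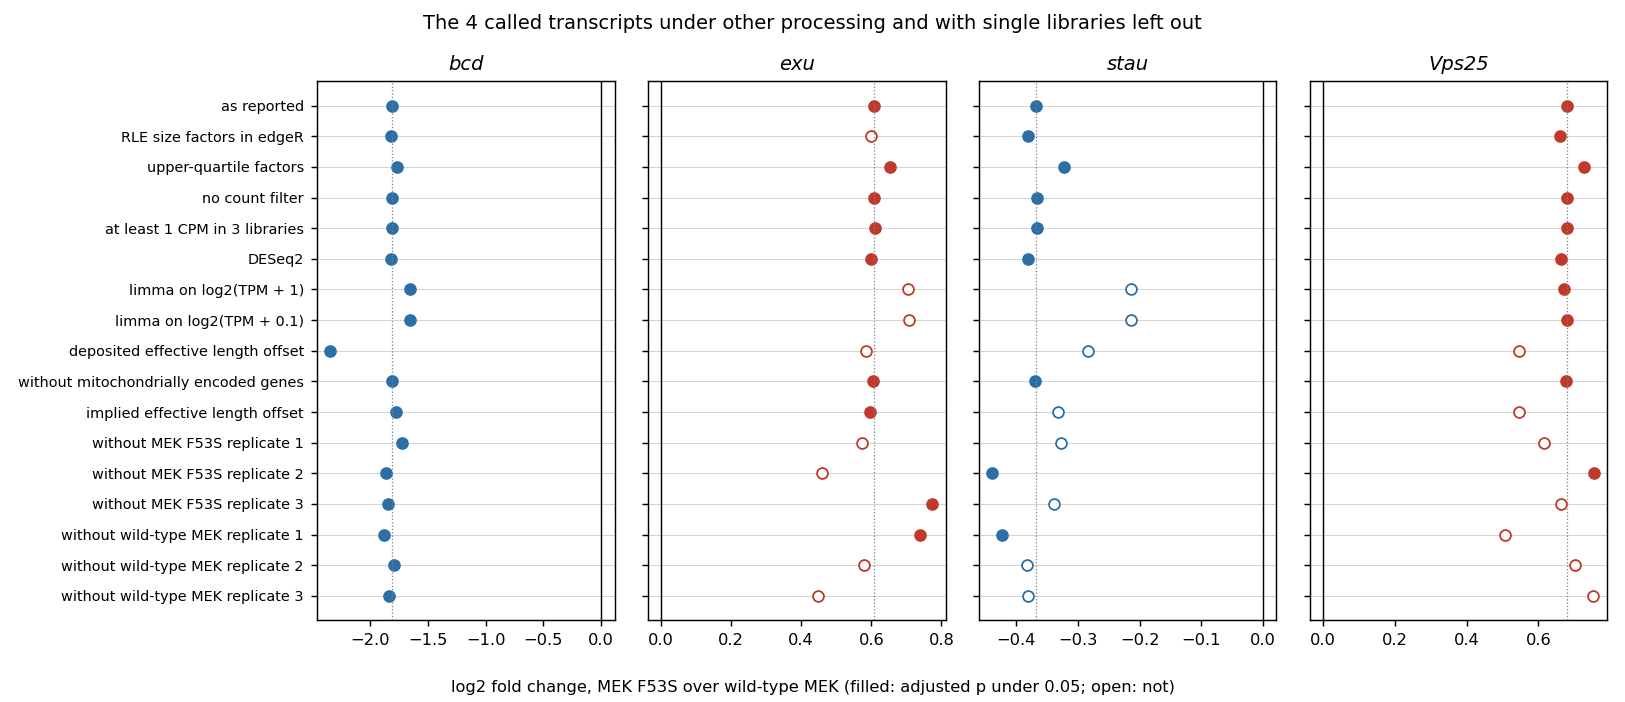
Log2 fold change of MEK F53S over wild-type MEK (x axis, a separate scale for each gene) of bcd, exu, stau and Vps25 as reported, in 10 alternative fits without a replicate block and in 6 fits that leave out 1 library (rows). Filled points have an adjusted p under 0.05: all points of bcd are filled, and 8, 8 and 7 of the 16 alternatives are open for exu, stau and Vps25.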

How the data were processed

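Salmon 0.8.2 and the build dm6 are named in the submitters' processing notes. The libraries are strand-specific, per the labels' protocols, and the sources used here do not give the annotation, strand setting, bias options or any poly(A) selection. Each library's table gives length, effective length, TPM and estimated count by gene, per the file headers. As deposited by the authors, estimated counts are not scaled for depth, while the deposited TPM is corrected for length and sums to a fixed total. Gene positions come from an Ensembl annotation of the dm6 assembly, and symbols from a gene name table.

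Estimated counts were rounded. Genes were filtered with filterByExpr (minimum count 10, minimum total 15), which left 7539, scaled with TMM factors and tested for the group difference alone by quasi-likelihood in edgeR 4.0.16 (R 4.3.3). P-values were adjusted over all tested genes by the Benjamini-Hochberg method, with a threshold of 0.05. Each log2 fold change has MEK F53S on top. Standard errors were derived from the F statistic, and CPM levels use the TMM factors. The test was tested on simulated data. For ratios and lengths, two-sided exact permutation tests were run in SciPy 1.17.1. P-values measure the spread between libraries that the submitters call biological replicates.

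Alternatives were other scalings, filters and offsets, DESeq2 1.42.0, limma 3.58.1 on log2(TPM + 1) or log2(TPM + 0.1), a replicate block and leaving out each library. The offset of an effective length implied by TPM was added after seeing the data. Named are the 7 genes, Dsor1, the 4 smallest p-values of each list, the 5 genes most like bcd and the nearest gene on each side. Other list members and markers were named after their values were seen, and so were galla-1 and CG6569. Of list symbols, Vps37A was not matched. The 7 genes and the lists were chosen with earlier results of these data known. Reads shared between copies of a gene were not examined.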

Additional observations from a re-analysis of the deposited data

How the results depend on the processing

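The fall of bcd passed the test in all 18 alternatives. Called genes numbered 930 higher and 970 lower, but 572 fell with limma on log2(TPM + 1) and 562 with log2(TPM + 0.1), where 64.7% and 65.0% of calls were higher against 48.9%; the cause was not tested. Among the 7 genes, 2 rose and 2 fell. Rises numbered 1 with RLE size factors and with limma at either pseudocount, 0 with the deposited effective length offset, 1 with that offset and a replicate block, and 1 with the implied effective length offset. Falls numbered 1 with limma at either pseudocount and with each of these offsets. Without 1 library, rises of all genes ranged from 424 to 1304 and falls from 506 to 1310, both counts moving by over 1.5 times without MEK F53S replicate 1 or 3 or wild-type MEK replicate 2 or 3, and the 7 genes gave 0 to 2 rises and 1 to 2 falls. The 2 rises without wild-type MEK replicate 1 were exu and Vps36. swa, never called, had a log2 fold change of 0.066 with limma at either pseudocount, where the median of all genes was 0.11 and 0.13 (0.05 in edgeR). The ratio of bcd to lsn differed by -2.31 on the log2 scale in estimated counts. The group difference of effective length was 82.1 bases as deposited and 230.1 as implied for exu, and 117 and 528 for stau. Called list genes changed call in none of 18 alternatives for orb, grk and gcl, in 2 for CycB, 4 for nanos, 8 for sktl, 9 for hb, 10 for Fmr1 and 12 for fs(1)K10. Of list genes without a call, bru1 passed in 5 alternatives, gammaTub37C and Vps60 in 3 each, cad and Lis-1 in 2 each, both limma.

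Replicates with the same number did not deviate together (correlations -0.058, -0.121 and 0.113). The largest correlation between the groups was 0.184, for MEK F53S replicate 2 with wild-type MEK replicate 1. Whether libraries shared a collection or preparation batch was not tested. With the replicate number as a block, 1 of the 7 genes rose and 1 fell (bcd, log2 fold change -1.82), and 744 genes rose and 742 fell.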
